A study of Rattus norvegicus with 2 samples.

Results

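Oxidative phosphorylation was followed here through a list of 55 genes for subunits of the respiratory chain and the ATP synthase: the 13 protein genes of mitochondrial DNA and 42 nuclear genes of complexes I to V and cytochrome c. The genes were taken by symbol from the gene tables of the 2 libraries. Of the 55, 53 had a row among the 25399 gene rows, namely all 13 mitochondrial genes and 40 of the 42 nuclear ones. Ndufa10 and Cox7a2 are not analysed here. The data are single-nucleus RNA sequencing counts from orbitofrontal cortex, taken from male rats of the Sprague-Dawley strain aged 8 weeks. One group received methamphetamine (METH) at 1 mg/kg by intraperitoneal injection for 7 days and the other received saline over the same period. All animals were anaesthetised with pentobarbital at 60 mg/kg, tissue of 4 rats per group was taken for nuclei, and each group is represented by 1 library. The labels do not say whether that library pools the 4 rats. With 1 library a group there is no replicate, so no test between METH and saline exists. Intervals are exact 95% intervals and cover counting error only, not the spread between nuclei or the difference between animals, dissections or preparations.

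The respiratory chain passes electrons from NADH (complex I) and succinate (complex II) through complex III and cytochrome c to oxygen at complex IV, and the ATP synthase (complex V) uses the resulting proton gradient to make ATP. Complexes I, III, IV and V combine subunits of both genomes, and complex II is wholly nuclear-encoded. The neuronal demand for ATP is met largely by this pathway, and fast-spiking parvalbumin interneurons are known for a high content of mitochondria. Mitochondrial DNA is transcribed inside mitochondria, outside the nucleus. In a preparation of nuclei its transcripts are counted when they stay with the nuclei or are free in the droplets, and these sources cannot be told apart here.

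After doublet removal 5162 METH nuclei and 6518 saline nuclei were kept. Over all its barcodes, the METH library held 44969322 UMIs (unique molecules) with a median of 6401 per barcode, and the saline library 42221257 with a median of 4992. The METH nuclei were thus the deeper ones, and 9 barcodes occurred in both libraries. Classes were named by likeness to marker genes, with the 53 members kept out of the clustering. The excitatory marker list stood at 1408 and 1491 CPM (the usual per-million scaling, here of a gene's or list's UMIs over all UMIs of the class) in excitatory nuclei of the METH and saline libraries, against 195.9 and 240.2 in inhibitory nuclei. Inhibitory markers stood at 3851 and 4030 in inhibitory nuclei, against 43.9 and 39.1 in excitatory ones. The 7 classes compared, as METH and saline nuclei, were excitatory neurons (2156 and 3499), inhibitory neurons (1289 and 1221), astrocytes (426 and 521), oligodendrocytes (278 and 361), oligodendrocyte precursors or OPCs (136 and 182), endothelial cells (145 and 163) and mural cells (100 and 125).

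The promoters of 4 nuclear members are shown because these genes stand at opposite ends of the values below in at least 1 neuron class. Of complex IV, Cox8a was among the lowest METH-to-saline ratios in excitatory neurons and Ndufa4 in inhibitory neurons. Sdhb of complex II was among the highest in both classes, and Uqcrc1 of complex III in inhibitory neurons only. Each is 250 bases before to 50 bases after the gene start, 5′ to 3′, from RefSeq on GRCr8, and capitals mark matches to the motifs described next.
Cox8a, chr1:213833574-213833873, minus strand: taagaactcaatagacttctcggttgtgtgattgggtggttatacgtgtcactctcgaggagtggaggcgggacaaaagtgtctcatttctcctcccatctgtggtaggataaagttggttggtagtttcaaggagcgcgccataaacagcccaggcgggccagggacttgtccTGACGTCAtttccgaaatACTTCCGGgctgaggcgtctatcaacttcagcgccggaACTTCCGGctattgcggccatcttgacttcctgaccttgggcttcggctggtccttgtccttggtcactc
Ndufa4, chr4:40975510-40975809, minus strand: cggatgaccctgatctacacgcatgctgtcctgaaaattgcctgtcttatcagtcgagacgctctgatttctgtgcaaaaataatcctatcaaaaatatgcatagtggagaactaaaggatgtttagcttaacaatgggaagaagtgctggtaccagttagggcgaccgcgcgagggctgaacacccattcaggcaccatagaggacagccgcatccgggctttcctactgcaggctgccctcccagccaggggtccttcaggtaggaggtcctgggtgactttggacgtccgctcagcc
Uqcrc1, chr8:118467973-118468272, plus strand: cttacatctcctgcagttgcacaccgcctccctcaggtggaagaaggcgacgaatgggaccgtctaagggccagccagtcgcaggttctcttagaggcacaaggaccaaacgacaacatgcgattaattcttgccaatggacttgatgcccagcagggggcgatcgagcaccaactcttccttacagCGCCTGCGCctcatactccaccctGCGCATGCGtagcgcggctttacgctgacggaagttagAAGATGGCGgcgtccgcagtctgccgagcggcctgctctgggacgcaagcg
Sdhb, chr5:158547684-158547983, plus strand: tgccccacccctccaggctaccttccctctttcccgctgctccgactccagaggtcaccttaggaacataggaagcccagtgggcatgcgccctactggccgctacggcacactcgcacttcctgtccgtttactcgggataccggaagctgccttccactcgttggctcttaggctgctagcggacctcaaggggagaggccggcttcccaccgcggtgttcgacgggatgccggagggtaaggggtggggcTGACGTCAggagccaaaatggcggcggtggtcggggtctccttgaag

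The 6 motifs searched, on both strands, were the cores GCGCANGCG of NRF1, CCGGAAGT of ETS factors and AAGATGGCG of YY1, the GC box GGGGCGGGG, the cAMP response element TGACGTCA and the estrogen-related receptor element TCAAGGTCA. In these sequences no 2 matches overlapped. The Cox8a promoter held 1 cAMP response element and 2 ETS cores, Uqcrc1 held 2 NRF1 cores and 1 YY1 core, Sdhb held 1 cAMP response element, and Ndufa4 held no match. Of the 42 nuclear members, 39 had an entry among the 33469 RefSeq promoters. The NRF1 core was in 7 of the 39 (17.9%, against 5.80% of all promoters) and the ETS core in 7 (against 3.81%). The YY1 core was in 6 (15.4%, against 1.73%), the cAMP response element in 3 (7.69%, against 1.83%), the GC box in 2 (5.13%, against 9.73%) and the estrogen-related receptor element in 2 (against 0.433%). At least 1 of the 6 motifs was present in 23 promoters, and 16 had none. These matches describe letters and say nothing of binding, and members with and without them occur at both ends of the ratios.

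The 13 mitochondrially encoded members were lower in the METH library in excitatory neurons. Their summed level was 924.5 CPM (20869 UMIs) in the METH library and 1328 CPM (33881 UMIs) in the saline library, log2 -0.52 (interval -0.55 to -0.50). In inhibitory neurons the sums were 2025 and 3091 CPM, log2 -0.61 (-0.64 to -0.58). The 40 nuclear-encoded members together stood at 1708 and 1802 CPM in excitatory neurons (log2 -0.08, interval -0.10 to -0.06) and at 2286 and 2512 CPM in inhibitory neurons (-0.14, interval -0.17 to -0.10). In both neuron classes the mitochondrial sum was therefore further apart between the libraries than the nuclear sum.

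Among the excitatory mitochondrial members, the 3 complex IV genes for the catalytic core of cytochrome oxidase stood close together in their ratios. For Mt-co1 the METH level was 161.3 CPM and the saline level 238 (log2 -0.56), for Mt-co2 they were 147.4 and 224.8 (-0.61), and for Mt-co3 171 and 247.7 (-0.53). Mt-cyb, the cytochrome b of complex III, was at 96.6 and 140.9 (-0.54). Mt-atp6, part of the proton channel of complex V, was at 106.3 and 157.4 (-0.57). These 5 genes thus had log2 ratios of -0.61 to -0.53.

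The complex I genes, which code for membrane-arm subunits, were less alike. Mt-nd1 stood at 65.3 CPM in METH and 93.7 in saline (log2 -0.52), Mt-nd2 at 61.0 and 75.8 (-0.31), and Mt-nd4 at 85.1 and 96.6 (-0.18, interval -0.27 to -0.10). Mt-nd3 was at 11.9 and 18.3 CPM (-0.62), Mt-nd5 at 8.28 and 13.4 (-0.69) and Mt-nd4l at 7.27 and 16.2 (-1.15, interval -1.42 to -0.89). Mt-nd6, the only one of the 13 encoded on the opposite strand, had 24 UMIs in METH and 27 in saline, too few to place. Mt-atp8 of complex V, with 44 and 101 UMIs, was at 1.95 and 3.96 CPM (-1.02).

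A gene counted as measured in a class when the 2 libraries together held 100 or more of its UMIs and either reached 20 CPM, and as past the size threshold at a 1.5-fold difference. Of the 13 mitochondrial members, 8 were measured in excitatory neurons, all 8 were lower in METH, and only Mt-co2 passed 1.5-fold. Over all 7139 genes measured there, 0.518% passed 1.5-fold lower and 0.28% passed it higher in METH, 54.1% had a ratio below 0, and the median log2 ratio was -0.01.

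In inhibitory neurons 11 of the 13 were measured, all 11 were lower in METH, and 7 passed 1.5-fold, against 1.15% of all 7561 measured genes passing it lower and 0.185% higher. The 7 were Mt-nd1 (151.5 CPM in METH and 229 in saline), Mt-nd3 (18.9 and 32.3), Mt-nd4l (15.3 and 38.1), Mt-co2 (308.3 and 526.8), Mt-co3 (348.3 and 561.1), Mt-atp6 (254 and 395) and Mt-cyb (214.9 and 338.6). Mt-nd2 was at 143.4 and 193.4, Mt-nd4 at 217.1 and 258.2, Mt-nd5 at 17.5 and 25.8, and Mt-co1 at 328.7 and 481, all lower in METH but within 1.5-fold. Mt-nd6 (25 and 18 UMIs) and Mt-atp8 (39 and 48 UMIs) fell short of the measured minimum.

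**Figure D1:**
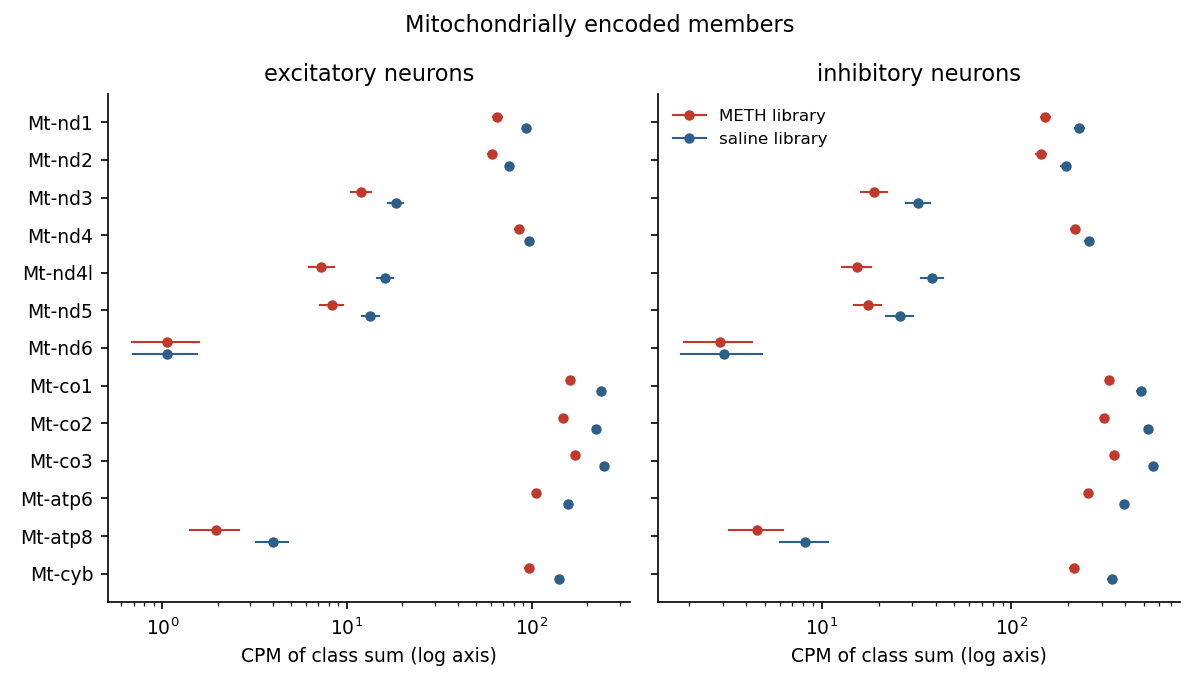
Level of each of the 13 mitochondrially encoded members in excitatory neurons (left) and inhibitory neurons (right) as CPM of the summed UMIs of the class, on a log axis. Points are the METH library (red) and the saline library (blue), and bars are exact 95% Poisson intervals. The METH point lies left of the saline point for 12 of 13 genes in excitatory neurons, where Mt-nd6 is at 1.06 CPM in both.

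The same direction held in the other classes, with different sizes. Oligodendrocytes had the lowest ratio: the mitochondrial sum was 2377 CPM in METH and 4776 in saline (log2 -1.01, interval -1.10 to -0.92). All 8 mitochondrial members measured there passed 1.5-fold lower, from Mt-nd2 (-0.62) to Mt-cyb (196.9 and 519.2 CPM, -1.40), against 5.89% of the 2479 genes measured passing it lower and 1.41% higher. The median log2 ratio of all genes measured in oligodendrocytes was itself -0.12, and TMM scaling, which centres most genes, moved ratios of this class by 0.17 towards METH. With it the mitochondrial sum was at -0.83.

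In astrocytes the mitochondrial sums were 1807 and 2701 CPM (-0.58), and 3 of 8 measured members (Mt-nd2, Mt-co2 and Mt-cyb) passed 1.5-fold lower, against 4.52% of 4663 genes lower and 1.42% higher. In mural cells the sums were 3081 and 4084 CPM (-0.41), and Mt-co1 (-0.62) and Mt-co2 (-0.80) of 7 measured members passed, against 7.48% of 642 genes passing lower and 7.48% higher. The mural ratio moved to -0.81 in nuclei with at least 1000 genes and to -0.11 (interval -0.31 to +0.10) in nuclei with at most 1% mitochondrial UMIs. OPCs stood at 2842 and 3345 CPM (-0.23) and endothelial cells at 3048 and 3695 CPM (-0.28), and the endothelial ratio was -0.05 (interval -0.30 to +0.20) in nuclei with at least 1000 genes. No member passed 1.5-fold in either, against 1.77% of 1641 genes lower and 1.71% higher in OPCs, and 12% of 892 lower and 9.19% higher in endothelial cells. Mt-nd4 and Mt-cyb in OPCs (+0.18 and +0.02), Mt-nd1 and Mt-nd4 in endothelial cells (+0.20 and +0.02) and the same pair in mural cells (+0.22 and +0.20) were higher in METH, each with an interval that includes 0.

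Because the METH nuclei were deeper, nuclei of the 2 libraries were also paired 1 to 1 on total UMIs. The pairing kept 1904 excitatory pairs and 927 inhibitory pairs. In excitatory neurons the mitochondrial sum was then 1008 and 1141 CPM, at log2 -0.18 (-0.21 to -0.15), so that the difference shrank from -0.52. In inhibitory neurons it was 2220 and 2919 CPM (-0.39, interval -0.43 to -0.36). The matched ratios were -0.42 in astrocytes, -0.77 in oligodendrocytes, -0.36 in OPCs, -0.48 in endothelial cells and -0.46 in mural cells. All 7 intervals lay below 0.

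The nuclear sum did not keep its direction in excitatory neurons: matched nuclei stood at 1760 CPM in METH and 1706 in saline (+0.04, interval +0.02 to +0.07). In inhibitory neurons it was 2376 and 2480 CPM (-0.06, interval -0.10 to -0.03). Set against each other, mitochondrial members gave 0.541 UMIs per nuclear-member UMI in excitatory METH nuclei and 0.737 in saline, and 0.573 and 0.669 after matching. In oligodendrocytes the same ratio was 1.23 in METH and 2.20 in saline, and in inhibitory neurons 0.886 and 1.23. It was lower in the METH library in all 7 classes, with and without matching.

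At matched depth 6 of the 8 measured mitochondrial genes of excitatory neurons were lower in METH, each with an interval below 0, and the median log2 ratio of the 8 was -0.19 beside +0.04 over all genes measured there. Mt-co1 (-0.25), Mt-co2 (-0.28), Mt-co3 (-0.19), Mt-nd1 (-0.19), Mt-cyb (-0.20) and Mt-atp6 (-0.15) were the 6. Mt-nd4 was higher in METH at 94.3 and 84.4 CPM (+0.16, interval +0.06 to +0.26) and Mt-nd2 stood at 69.4 and 65.3 CPM (+0.09, interval -0.03 to +0.21). Mt-nd4l, under the CPM minimum, was at 7.57 and 15.1 CPM (-0.99). In inhibitory neurons all 11 measured genes were still lower and 3 passed 1.5-fold, from Mt-nd4 (-0.04) to Mt-nd4l (13.7 and 36.4 CPM, -1.41). Of all 7604 genes measured in these matched nuclei, 0.75% passed it lower, 0.868% passed it higher, and 44.9% had a ratio below 0.

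The difference also varied with the depth of the nuclei. When the nuclei of a class were divided into 4 bins by total UMIs, excitatory nuclei of the shallowest bin had mitochondrial sums of 1996 CPM in METH and 2059 in saline (-0.04, interval -0.12 to +0.03), and those of the deepest bin 739.7 and 913.8 (-0.30, interval -0.35 to -0.26). Inhibitory nuclei showed another order, with -0.72 in the third bin and -0.07 in the deepest (1782 and 1870 CPM). Over the 7 classes the mitochondrial sum was lower in METH in 26 of 28 bins, with an interval wholly below 0 in 20, and the nuclear sum in 18 of 28.

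**Figure D2:**
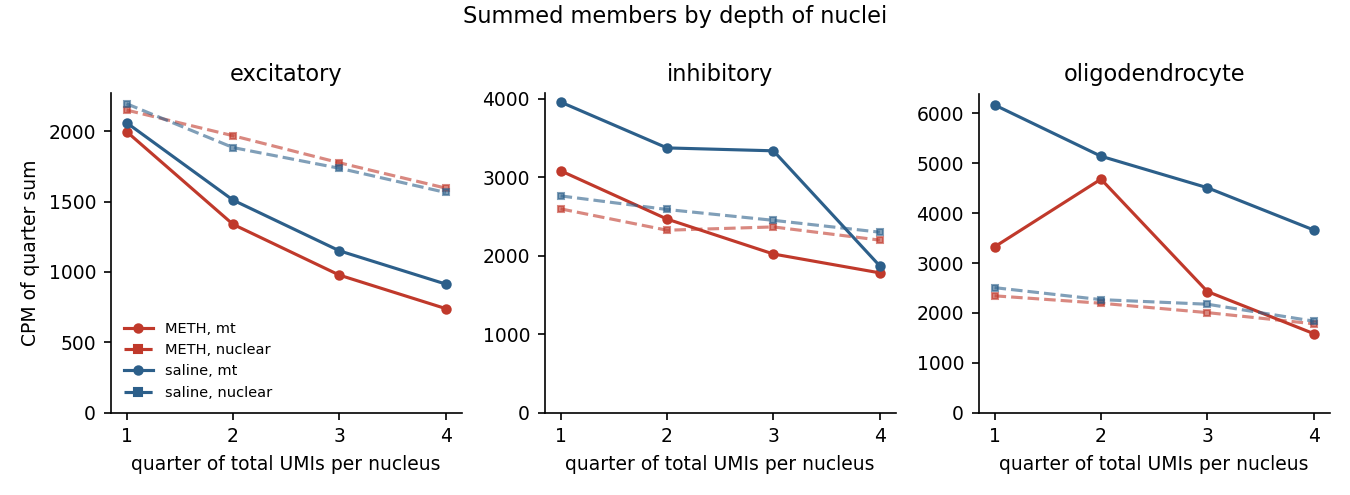
Summed level (CPM) of mitochondrial members (circles, solid lines) and nuclear members (squares, dashed lines) in each of 4 bins of total UMIs per nucleus, from shallow (1) to deep (4), in excitatory, inhibitory and oligodendrocyte nuclei. Red is the METH library and blue the saline library. The excitatory mitochondrial level declines with depth in both libraries, from 1996 to 739.7 CPM in METH and from 2059 to 913.8 in saline.

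The lower level was spread over many nuclei in the neuron classes. The mitochondrial members made up a median 0.0688% of the UMIs of a METH excitatory nucleus and 0.101% of a saline one. In inhibitory nuclei the medians were 0.144% and 0.222%, and in oligodendrocytes 0.143% and 0.251%. Median and 95th percentile were both lower in METH in all 7 classes and all 13 neuron subclasses. These shares are of all nuclei and were not matched on depth. Excitatory nuclei had a median of 9405 UMIs in METH and 6410 in saline. The nucleus with most mitochondrial UMIs supplied at most 1.20% of the class total in either neuron class. When each nucleus was thinned to 1000 UMIs, 52.8% (50.7 to 54.9) of METH excitatory nuclei and 63.1% (61.5 to 64.7) of saline ones held at least 1 mitochondrial UMI. Without thinning the shares were 97.3% and 97.4%, and 3 excitatory nuclei per library were too shallow to thin. Thinning draws equally many UMIs from each nucleus but does not pair nuclei of like original depth. The thinned share was lower in METH in 5 of 7 classes. It was higher in OPCs, at 84.2% (76.9 to 89.95) and 78.2% (71.3 to 84.1), and in mural cells, at 80.6% (69.1 to 89.2) and 79.7% (67.2 to 89.0), with overlapping intervals. In some classes many nuclei were too shallow to thin, unequally between the libraries. Left out were 33 METH and 66 saline mural nuclei, 52 and 73 endothelial nuclei, and 3 and 39 oligodendrocytes. The thinned shares of these classes describe their deeper nuclei only. Every cell type carries these genes, so no class gives a background share for RNA free in the droplets.

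Among the nuclear members the complexes differed. Complex IV, cytochrome oxidase, was the lowest in both neuron classes: its 9 nuclear members summed to 279 CPM in METH and 328.1 in saline in excitatory neurons (log2 -0.23, interval -0.28 to -0.19), and to 413.9 and 519.3 CPM in inhibitory neurons (-0.33, interval -0.40 to -0.26). All 9 were measured and lower in METH in both. Cox8a, a small structural subunit, was at 34.8 and 46.1 CPM in excitatory neurons (-0.41), Cox6a1 at 17.0 and 22.3 (-0.39) and Cox7b at 19.0 and 24.0 (-0.34). In inhibitory neurons Ndufa4, once assigned to complex I and now to complex IV, stood at 41.3 and 63.6 CPM (-0.62) and Cox7c at 41.3 and 56.6 (-0.46). Cox7c in astrocytes (62.6 and 98.4 CPM, -0.65) was the 1 nuclear member past 1.5-fold lower there, of 25 measured, a share near the 4.52% of all genes. It was at -0.56 after matching, within 1.5-fold.

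Complexes II and III stood apart from complex IV. Complex II, succinate dehydrogenase, summed to 208.9 CPM in METH and 199.1 in saline in excitatory neurons (+0.07, interval +0.01 to +0.13). Its iron-sulfur subunit Sdhb was at 82.6 and 74.5 CPM (+0.15) and its membrane anchor Sdhd at 23.3 and 20.9 (+0.15). The nuclear members of complex III summed to 337.3 and 323.7 CPM (+0.06, interval +0.01 to +0.10), with the core protein Uqcrc2 at 167.2 and 150.7 (+0.15) and Uqcrh at 102.8 and 95.5 (+0.11). Within complex III the Rieske protein Uqcrfs1 (220 and 359 UMIs, -0.53) and Uqcrq (306 and 501 UMIs, -0.53) were lower but below the CPM minimum. In inhibitory neurons complex II was at 268.6 and 275.4 CPM (-0.04, interval -0.13 to +0.06) and complex III at 433 and 434.3 (-0.00, interval -0.08 to +0.07).

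Complexes I and V lay between. The 13 nuclear members of complex I summed to 505.6 and 538.6 CPM in excitatory neurons (-0.09) and the 8 of complex V to 366.4 and 399.1 (-0.12). In complex I Ndufv2, of the NADH-oxidising module, was the highest measured nuclear member (64.5 and 56.2 CPM, +0.20), while Ndufs4 was at 122.9 and 130 (-0.08). Ndufb8, a membrane-arm subunit, stood at 29.4 and 44.4 CPM in inhibitory neurons (-0.60) and was, with Ndufa4, 1 of 2 nuclear members past 1.5-fold lower there, of 37 measured, beside 1.15% of all genes. Neither passed at matched depth, with Ndufb8 at -0.35 and Ndufa4 at -0.49. The highest in inhibitory neurons were Ndufb10 (23.9 and 21.6 CPM, +0.15), Uqcrc1 (+0.14), Sdhb (+0.07) and Ndufv2 (+0.06), each with an interval including 0. At matched depth Ndufb10 was at 27.6 and 19.5 CPM (+0.50, interval +0.11 to +0.89), Uqcrc1 at +0.26 (+0.04 to +0.50), Sdhb at +0.18 and Ndufv2 at +0.05, the last 2 with intervals including 0. In complex V the F1 subunit Atp5f1d was at 25.7 and 33.6 CPM in excitatory neurons (-0.39) and Atp5f1c at 152.7 and 156.8 (-0.04). Cycs, cytochrome c itself, was below the measured minimum in excitatory neurons with 246 and 330 UMIs, and Ndufa1 had 1 UMI in each library.

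In excitatory neurons 33 of the 40 nuclear members were measured, 25 were lower in METH, none passed 1.5-fold, and their median log2 ratio was -0.13 beside -0.01 over all measured genes. In inhibitory neurons 37 were measured and 30 were lower, with a median of -0.17 beside -0.01. Of all measured genes, 54.1% were lower in METH in excitatory and 52.7% in inhibitory neurons. Few nuclear members were measured in the smaller classes. In oligodendrocytes 5 were, from Uqcrh (-0.44) and Ndufs4 (-0.17) to Atp5f1c (-0.00) and Ndufv2 (+0.37). In OPCs 3 were, namely Atp5f1c (-0.08), Uqcrc2 (+0.33) and Ndufs4 (+0.45). Endothelial and mural cells had none. In astrocytes Ndufa4 (-0.37) followed Cox7c at the low end, and Ndufs7 (+0.48) and Sdhd (+0.37) were the highest, all 3 with intervals including 0.

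At matched depth the order of the complexes stayed, with the nuclear ratios moved upwards. In excitatory neurons complex IV was at -0.05 (interval -0.11 to +0.01), complex V at -0.02, complex I at +0.03, complex III at +0.15 (+0.09 to +0.20) and complex II at +0.18 (+0.11 to +0.25). In inhibitory neurons complex IV remained at -0.23 (-0.32 to -0.15), while complexes I (-0.05), II (+0.03), III (+0.07) and V (-0.07) had intervals that include 0. The mitochondrial members of complex IV were at -0.24 in matched excitatory and -0.48 in matched inhibitory nuclei, against -0.06 and -0.24 for those of complex I. Of single nuclear genes in matched excitatory nuclei, Sdhb was at +0.30, Ndufv2 at +0.32, Cox8a at -0.19 and Ndufa4 at -0.00.

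**Figure D3:**
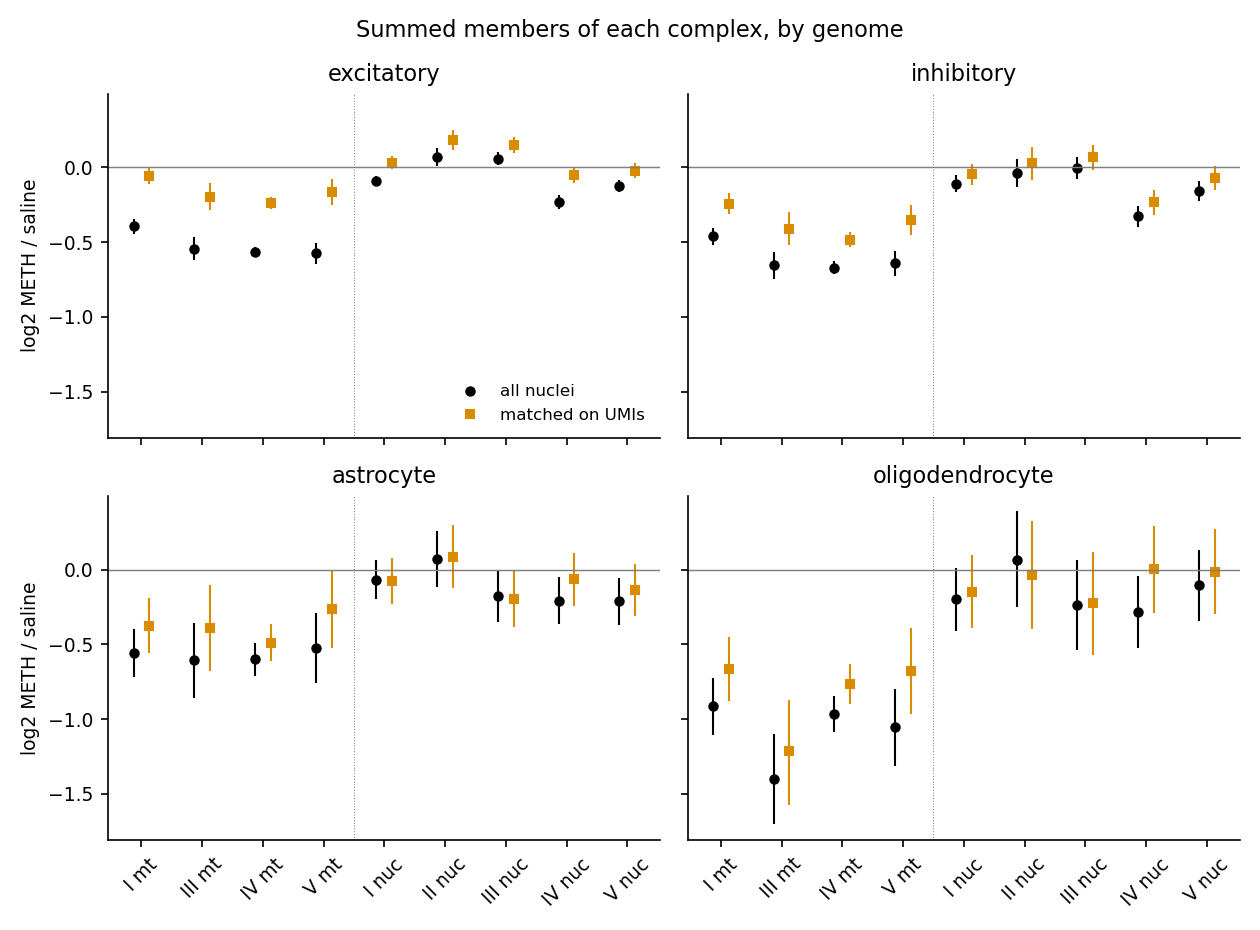
Log2 ratio of METH to saline for the summed members of each complex, mitochondrial (mt, left of the dotted line) and nuclear (nuc, right), in 4 classes. Black circles are all nuclei, orange squares are nuclei matched on total UMIs, and bars are exact 95% intervals. All mitochondrial points lie below 0 in these 4 classes, and nuclear complex IV in all nuclei lies below 0 in each.

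The neuron subclasses repeated both patterns in all nuclei, but nuclear complex IV only in part at matched depth. Excitatory nuclei fell into clusters like layer 2/3 intratelencephalic (L2/3 IT), L5/6 near-projecting (NP), L5 extratelencephalic (ET), L6 corticothalamic (CT) and L6 IT neurons, and 3 clusters named only by their leading genes. Inhibitory nuclei fell into clusters like Lamp5, Pvalb, Sncg, Sst and Vip interneurons, and 3 small clusters named only by their leading genes (117 METH and 90 saline nuclei together), which were too small to compare. The mitochondrial sum was lower in METH in 13 of 13 subclasses, each with an interval below 0, and in 12 of 13 after matching, 11 of them with an interval below 0. Nuclear complex IV was below 0 in 13 of 13 (log2 -0.56 to -0.17, each interval below 0) and in 9 of 13 after matching, 3 of them with an interval below 0. The 9 were 4 of 8 excitatory and 5 of 5 inhibitory subclasses. The sum of all nuclear members was below 0 in 13 of 13, and in 6 of 13 after matching. Nuclear complex II was below 0 in 5 of 13 and complex III in 5 of 13, and in 2 and 3 of 13 after matching.

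The size differed between subclasses. Lamp5 interneurons had the lowest ratio, at 1289 CPM in METH and 2868 in saline (log2 -1.15, and -1.01 after matching). Sst interneurons, with the highest mitochondrial level of any subclass in saline at 3596 CPM (3507 to 3686), stood at 1930 CPM in METH (-0.90, and -0.61 after matching), where their interval overlapped that of Sncg. Pvalb interneurons were at 2143 and 2974 CPM (-0.47, and -0.22) and Vip interneurons at 2242 and 2884 (-0.36, and -0.39). L2/3 IT neurons were at 716.7 and 1161 CPM (-0.70, and -0.36). L6 IT neurons were at 997.5 and 1101 CPM (-0.14), and their matched ratio was the 1 above 0 (+0.12), but 1 nucleus held 14.2% of the mitochondrial UMIs of all METH L6 IT nuclei. Without the nucleus of most mitochondrial UMIs in each library, L6 IT neurons were at 864.1 and 1076 CPM (-0.32), and at 870.5 and 897.1 after matching (-0.04, interval -0.16 to +0.07). The ratio was then below 0 in 13 of 13 subclasses both with and without matching, but after matching only 11 had an interval below 0. L5 ET neurons were at -0.06 after matching (interval -0.15 to +0.02), and at -0.08 (-0.16 to +0.01) without those nuclei. Leaving out these nuclei was chosen after the data were seen.

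The order of the levels was similar in the libraries for the nuclear genes. Pvalb interneurons had the highest nuclear sum in both, at 2790 CPM in METH and 3017 in saline, and their intervals did not overlap those of the next subclass. The lowest was the excitatory cluster led by Il1rapl2 and Rorb, at 1482 and 1616 CPM. Among the classes astrocytes were highest (2766 and 3008 CPM), with an interval overlapping that of mural cells, and excitatory neurons lowest (1708 and 1802). The nuclear sums of the classes spanned a 1.62-fold range in METH and 1.67-fold in saline. The mitochondrial sums spanned 3.33-fold and 3.60-fold, with excitatory neurons lowest in both libraries, mural cells highest in METH (overlapping endothelial cells) and oligodendrocytes highest in saline. Depth was not matched between classes or subclasses in these orders. Median UMIs per nucleus in METH and saline were 9405 and 6410 in excitatory neurons, but 1136.5 and 955 in mural cells. The part of depth in the order of levels was not tested.

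**Figure D4:**
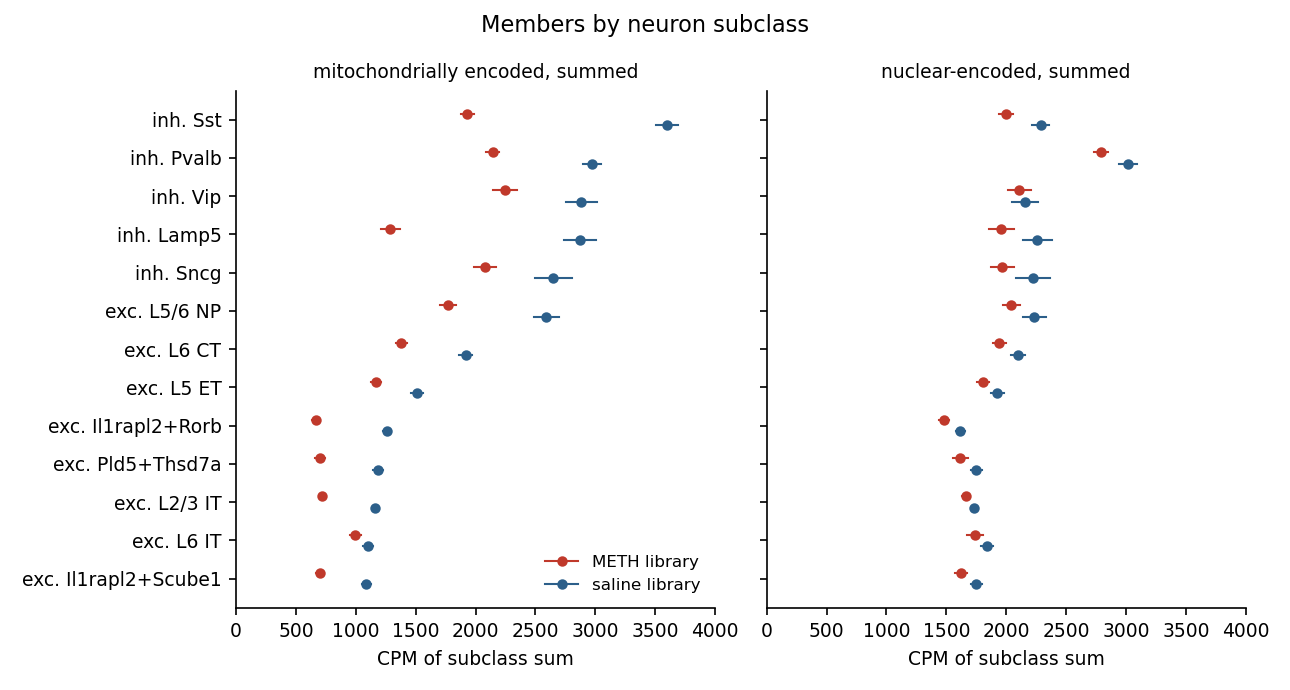
Summed level (CPM) of the mitochondrial members (left) and the nuclear members (right) in the 13 neuron subclasses, sorted by the saline mitochondrial level. Red points are the METH library, blue points the saline library, and bars are exact 95% Poisson intervals. Sst, at the top, goes from 3596 CPM in saline to 1930 in METH, while Pvalb is highest on the right in both libraries.

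Single mitochondrial genes differed in how regularly they were lower over the subclasses. Mt-nd1, Mt-co1, Mt-co2, Mt-co3, Mt-atp6 and Mt-cyb were each measured in 13 subclasses and lower in METH in all 13. Mt-nd2 was lower in 12, and Mt-nd4 in 9, with log2 ratios from -1.07 to +0.17.

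Mt-nd4l and Mt-nd4 are carried by 1 mRNA, as are Mt-atp8 and Mt-atp6, and in each pair the reading frames overlap, so how the counting divided reads between them affects each gene alone. The share of Mt-nd4l in the UMIs of its pair was 7.87% (6.75 to 9.11) in METH excitatory nuclei, from 164 and 1921 UMIs, and 14.3% (13.1 to 15.7) in saline, from 412 and 2464. In inhibitory nuclei it was 6.57% (5.52 to 7.75) and 12.9% (11.3 to 14.5). The share was lower in METH in 7 of 7 classes, with intervals apart in the 2 neuron classes, and in 13 of 13 subclasses, 5 with intervals apart. Sst interneurons were at 4.89% and 14.3%, and Vip interneurons at 4.72% and 16.3%. Matching left the shares at 7.43% and 15.2% in excitatory and 5.55% and 13.2% in inhibitory nuclei. Mt-atp8 made up 1.80% and 2.45% of its pair in excitatory nuclei, was lower in METH in 5 of 7 classes, and had overlapping intervals in all 7.

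**Figure D5:**
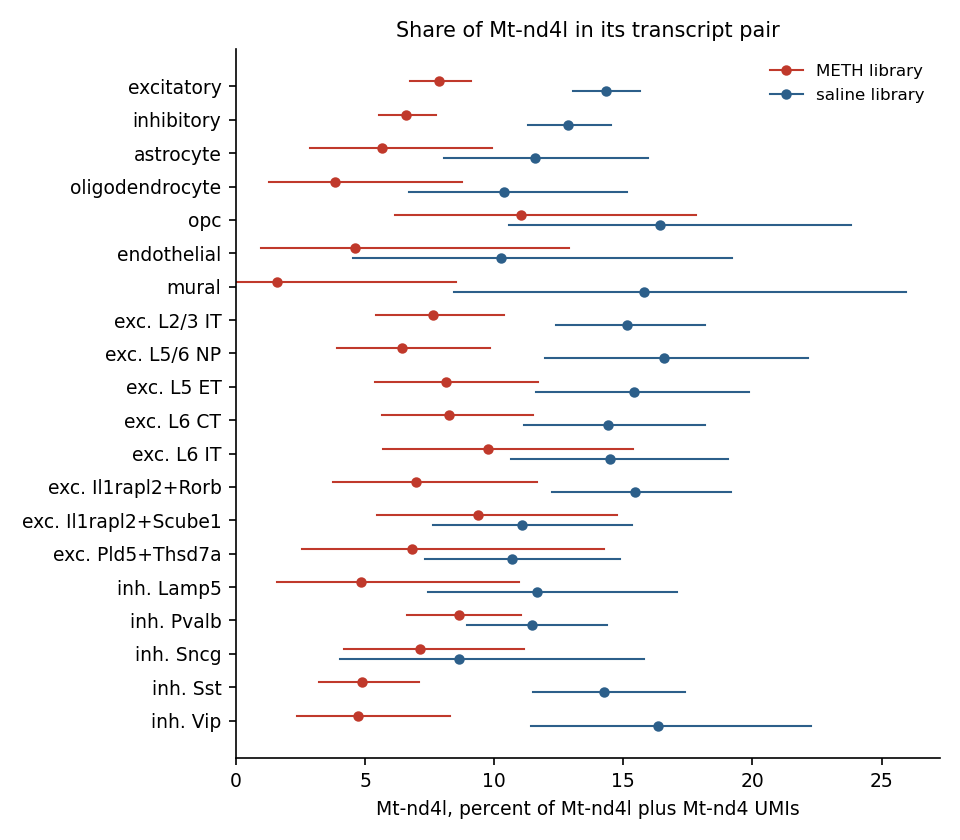
Percent of the UMIs of Mt-nd4l plus Mt-nd4 that were counted as Mt-nd4l, in the 7 classes and 13 neuron subclasses. Red points are the METH library, blue points the saline library, and bars are exact 95% binomial intervals. The METH point lies left of the saline point in all 20 rows, with bars apart for excitatory (7.87% and 14.3%) and inhibitory neurons (6.57% and 12.9%).

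Other genes around the pathway were summed for excitatory neurons. Of 24 measured gene rows for structural subunits outside the 55 members, 18 were lower in METH and the sum was at log2 -0.12 (matched +0.03). The lowest were Ndufc1 (-0.35) and Atp5me (-0.28), and the highest Atp5po (+0.10) and Ndufv3, a complex I accessory subunit. Ndufv3 has 2 rows in the gene tables, both counted among the 24. ENSRNOG00000027593 was at 21.3 CPM in METH with 9.88 in saline (+1.11), and ENSRNOG00000001182 at 48.2 and 54.1 (-0.17). The assembly factors were at -0.05, with 13 of 21 measured genes lower, from Ndufaf8 (-0.54) and Tmem70 (-0.16) to Atpaf1 (+0.12) and Cox16 (+0.16). Genes of mitochondrial DNA expression and biogenesis were at -0.00, with 11 of 20 lower, from Mtpap (-0.15) and Pnpt1 (-0.13) to Ppargc1b and Ssbp1 (+0.20 each).

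The sums of 4 supply pathways lay between -0.05 and +0.04 in excitatory neurons. The tricarboxylic acid cycle was at -0.00 with 11 of 17 genes lower, from Idh3g (-0.20) and Sucla2 (-0.14) to Dlat (+0.20) and Suclg2 (+0.24). Glycolysis, a list that includes the transporter genes Slc2a1, Slc2a3, Slc16a1 and Slc16a7, was at -0.05 with 8 of 13 lower. Its measured genes ran from Aldoa (-0.33) and Eno1 (-0.24) to Gpi (+0.14) and Pfkl (+0.29). Adenylate and phosphate exchange was at +0.04 with 8 of 12 lower, from Ckb (-0.21) and Ak4 (-0.14) to Slc25a27 (+0.07) and Ak5 (+0.12). The antioxidant genes were at -0.00 with 5 of 10 lower, from Prdx5 (-0.37) and Cat (-0.19) to Keap1 (+0.11) and Txnrd1 (+0.27). None of the genes of these 4 lists passed 1.5-fold in excitatory neurons. In matched excitatory nuclei the tricarboxylic acid cycle was at +0.08 (interval +0.05 to +0.11), the antioxidant genes at +0.10 (+0.06 to +0.15), adenylate and phosphate exchange at +0.06 and glycolysis at +0.01. The glycolysis list was at -0.14 in inhibitory neurons (-0.08 after matching). In endothelial cells it was at 3062 and 1977 CPM (+0.63, and +0.65 after matching). Only 1 of its genes was measured there, at +0.90. The transporter gene Slc2a1 was among the leading genes of the endothelial cluster, and the share of single genes in the sum was not tested.

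Genes outside energy metabolism also differed between the libraries. Ribosomal protein genes, also short and abundant mRNAs, were at -0.23 in excitatory neurons with 27 of 30 measured genes lower (matched +0.02), from Rps23 (-0.60) and Rps15 (-0.50) to Rpl21 (+0.23) and Rpl15 (+0.32). In inhibitory neurons they were at -0.31 (matched -0.06). A list of other abundant cytoplasmic mRNAs was at -0.15 with 12 of 15 lower, from Cst3 (38.8 and 91.2 CPM, -1.23) and Fth1 (-0.48) to Tuba1b (+0.05) and Hsp90ab1 (+0.20). Snhg11, the 1 of 10 listed nuclear-retained RNAs with a row, had a log2 ratio of +0.21 among excitatory nuclei and +0.22 among inhibitory ones, but -0.91 in astrocytes and OPCs, -0.70 in oligodendrocytes, -0.71 in endothelial cells and -0.33 in mural cells. Its METH and saline levels were 2321 and 2008 CPM in excitatory and 4627 and 3983 in inhibitory nuclei. They were 140.6 and 264.8 in astrocytes and 1006 and 1265 in mural cells. The part of neuronal RNA in the levels of these other classes was not tested. Glucocorticoid-responsive genes were at +0.13 in excitatory neurons, from Sult1a1 (-0.62) and Dusp1 (-0.19) to Zbtb16 (+0.27) and Fkbp5 (+0.49).

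Most, but not all, marker lists of other cell types were also lower in METH in these nuclei. In excitatory nuclei the 8 oligodendrocyte markers summed to 133.6 CPM in METH and 171.1 in saline, the 9 microglia markers to 29.8 and 41.3, and the 8 astrocyte markers to 203.9 and 213.8, with none of them at 0. The inhibitory markers (43.9 and 39.1 CPM) and the endothelial markers (23.4 and 21.5) were higher there. So were the erythroid (24.2 and 23.6) and choroid or ependymal markers (9.66 and 8.39). In inhibitory nuclei the oligodendrocyte markers were at 126.9 and 198.2 and the microglia markers at 18.2 and 34.2. Higher in METH there were the committed OPC (15.3 and 9.52), erythroid (21.4 and 16.3) and choroid or ependymal markers (6.41 and 4.59). In oligodendrocytes the 5 excitatory markers with a row were at 123.1 and 204.8 CPM, and the inhibitory markers at 823 and 787.5. The part of other cells' RNA, of depth and of cytoplasmic RNA in the lower mitochondrial sums was not tested.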

How the data were processed

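Single-nucleus RNA was measured with the 10x Chromium 3′ assay in 1 METH and 1 saline library. The authors' deposited tables hold UMI counts per gene and barcode. The submitters' processing notes name Cell Ranger 7.0.0 as the tool and the build hg38, whereas the gene identifiers in the deposited tables are rat ones. No label or header states the handling of strand and overlapping genes.

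Barcodes with at least 500 genes were kept. Scrublet in scanpy 1.11.5 removed 328 METH and 399 saline barcodes at an expected doublet rate of 0.06. Clusters came from 2000 variable genes, 30 components, 15 neighbours and Leiden resolution 1 (0.5 within neurons), without the members among the variable genes. The members, marker lists and gene lists were chosen with earlier results of these data known. The naming rules were changed 3 times after cluster markers were seen, the last time after first values by class were seen.

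Raw counts were summed per library and class and divided by the summed UMIs of that class (CPM). Log2 ratios have exact conditional binomial intervals, levels exact Poisson intervals and shares exact binomial intervals, all at 95%. Matched nuclei were paired 1 to 1 within 0.05 log2 units of total UMIs. Classes needed 50 nuclei per library, and committed OPCs, microglia, fibroblasts, 3 small inhibitory clusters and unnamed clusters (509 METH and 312 saline nuclei) were not compared. The planned comparison has 1 sample a group, so no p-value was computed. Ratios were checked on simulated class sums with known folds. These were drawn as Poisson counts, the model the intervals assume, so the check does not cover spread between nuclei. Alternatives were TMM scaling (edgeR 4.0.16), other filters, matching, thinning to 1000 UMIs and equal weights. Uqcrb, Cox6b1 and Ndufv3 have 2 rows each, so symbols alone do not identify them.

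Genes were named by rule: all mitochondrial members; in excitatory and in inhibitory neurons the 4 lowest and 4 highest measured nuclear members and the 5 with most UMIs; in other classes the 2 lowest and 2 highest; and the 2 lowest and 2 highest of each list. Further members, such as Uqcrfs1, Uqcrq and the genes of matched values, were named after their values were seen.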

Additional observations from a re-analysis of the deposited data

Results flagged for a closer look

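In 7 cases a sum of members had an interval above 0 in 1 class or subclass and below 0 in others. These differences between populations were not tested. The nuclear members of complex I were at log2 +0.30 (0.2975) in OPCs, while the interval lay below 0 in 2 of 7 classes. The nuclear members of complex III were at +0.06 (0.0593) in excitatory neurons and at +0.15 (0.1468) after matching on UMIs, below 0 in 1 of 7 classes each time. The 40 nuclear members together were at +0.04 (0.0449) in matched excitatory neurons and below 0 in 2 of 7 classes. The median over all genes measured in those matched excitatory neurons was also +0.04. In matched L6 IT neurons the 13 mitochondrial members were at +0.12 (0.117), below 0 in 11 of 13 subclasses, and those of complex I at +0.24 (0.2423), below 0 in 7 of 13. Without the nucleus of most mitochondrial UMIs in each library, the 13 were at -0.04 in matched L6 IT neurons (interval -0.16 to +0.07). The nuclear members were at +0.06 (0.0594) in matched L2/3 IT neurons and below 0 in 1 of 13 subclasses.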

How the results depend on the processing

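No paired analysis was possible because each group has 1 sample. The mitochondrial sum stayed below 0 under each alternative run in the 7 classes, and the cause of each shift below was not tested.

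Matching on UMIs moved the mitochondrial log2 ratios to -0.18 (excitatory), -0.39 (inhibitory), -0.42 (astrocytes), -0.77 (oligodendrocytes), -0.36 (OPCs) and -0.48 (endothelial), and the nuclear sum to -0.062 in inhibitory neurons. Among class sums whose interval had excluded 0, it reversed the nuclear sum (+0.045), nuclear complex I (+0.032) and Cycs (+0.017) in excitatory neurons. It also reversed nuclear complex IV in oligodendrocytes (+0.0016). Subclass sums are not listed in full. Over the subclasses the nuclear sum was below 0 in 13 of 13 before matching and in 6 of 13 after it. Nuclear complex IV was below 0 in 13 of 13 before and in 9 of 13 after. The mitochondrial sum reversed in L6 IT neurons (+0.12, and -0.04 when the nucleus of most such UMIs in each library is also left out). Thinning to 1000 UMIs gave mitochondrial ratios of -0.43 in excitatory neurons, -0.90 in oligodendrocytes and -0.17 in mural cells, and nuclear ratios of -0.13, -0.10 and +0.18 in excitatory, inhibitory and mural nuclei. Only 67 METH and 59 saline mural nuclei were deep enough to thin. TMM scaling gave mitochondrial ratios of -0.49 (astrocytes) and -0.83 (oligodendrocytes) and nuclear ratios of -0.052 (excitatory), -0.030 (astrocytes) and +0.0043 (oligodendrocytes, reversed). Nuclei with at most 1% mitochondrial UMIs gave -0.48 (inhibitory), -0.48 (astrocytes), -0.60 (oligodendrocytes) and -0.11 (mural, interval -0.31 to +0.10). At least 1000 genes per nucleus gave -1.17 (oligodendrocytes), -0.050 (endothelial) and -0.81 (mural). Equal weight per nucleus gave -0.48 (excitatory) and -0.88 (oligodendrocytes), and subclasses weighted alike gave -0.10 for the excitatory nuclear sum.

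Members past 1.5-fold lower numbered 0 in excitatory neurons with matching (40 measured, beside 0.491% of all genes) and with TMM (0.448%). With matching, inhibitory neurons had 3 of 48 measured (0.75% of all genes), astrocytes 1 of 29 (3.29%), oligodendrocytes 5 of 12 (6.74%), OPCs 1 of 10 (1.4%) and endothelial cells 3 of 7 (4.25%), all of them mitochondrial. Mural cells had 3 of 4 with matching (6.56%), also mitochondrial. TMM left 7 of 48 in inhibitory neurons (0.992%) and 6 of 13 in oligodendrocytes (2.1%). It left 1 of 33 in astrocytes (2.68%), 1 of 7 in mural cells (6.54%), and 0 in OPCs (1.46%) and endothelial cells (9.75%). A minimum of 30 UMIs without a CPM minimum gave excitatory neurons 5 of 52 (4.43%), astrocytes 9 of 49 (10%), oligodendrocytes 16 of 42 (14.4%), OPCs 4 of 29 (8.22%), endothelial cells 2 of 19 (14.8%) and mural cells 4 of 22 (13.1%). Inhibitory neurons had 10 of 52 with this minimum (4.24%). The same minimum also gave 1 past 1.5-fold higher in excitatory neurons (2.47%), oligodendrocytes (3.68%) and mural cells (10.9%). A limit of 5% mitochondrial UMIs, keeping doublets, and leaving out the nucleus with most such UMIs in each library (an alternative chosen, like those for subclasses, after seeing the data) each left 14 of 14 sums within their error. Depth limits the smaller classes: none of the nuclear members reached the minimum in endothelial or mural cells.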

Other observations

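Atp5pb, a stator subunit of complex V, had 77 UMIs in METH and 39 in saline in excitatory neurons (3.41 and 1.53 CPM, log2 +1.16, interval +0.58 to +1.75), and +1.27 in matched nuclei. It lay under the 20 CPM minimum and was chosen after its values were seen. In inhibitory neurons it had 35 and 21 UMIs (+0.19, interval -0.63 to +1.05).

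Of the 11 populations left out of the comparison, each with under 50 nuclei in a library or unnamed, 8 had at least 10 nuclei in both libraries, and the mitochondrial sum was lower in METH in 7 of the 8. In the unnamed cluster numbered 19 (154 METH and 81 saline nuclei) mitochondrial members reached 14.0% of the UMIs of a single METH nucleus and 19.8% of a saline one. The unnamed cluster numbered 14 held 145 METH nuclei and 1 saline nucleus, and is not among the 8.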
